A study of Rattus norvegicus with 6 samples.

Results

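A set of 9 genes known as markers of nerve injury and of axon regeneration were followed in sensory tissue of diabetic rats with painful neuropathy, abbreviated PDN in the labels, a nerve disease that brings pain and loss of feeling. They are Atf3, Sox11, Gap43, Stmn4, Flrt3, Sprr1a, Reg3b, Ecel1 and Ankrd1, taken by name from the expression table, and all 9 were found among its 22536 genes. The samples were 3 libraries from control rats and 3 from PDN rats, all male, with tissue labelled sensory neuron and a series title that names the dorsal root ganglion. The series' text counts 3 rats in each group, so each library is taken as 1 animal. The sources used here do not say how diabetes was produced, nor the age, strain and time point of the animals.

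When the axon of a sensory neuron is cut or crushed, the cell body switches on a program that is led by transcription factors such as ATF3, JUN and SOX11. It raises proteins of the growth cone, such as GAP-43, and of axon growth, such as SPRR1A and the stathmins. In the same cells, ion channels and transmitters of the resting neuron fall. Many genes of this program, Atf3 and Sprr1a among them, are low in intact ganglia, which is why they are used as signs of axon damage.

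Expression is given in deposited FPKM, the number of sequenced fragments divided by transcript length and by library size. The libraries held 13093 to 13286 genes with an FPKM of at least 1, and the deposited tables point to 51855000 to 62785000 fragments per library. All 12 neuron markers checked were present, from Tubb3 at 1490 to 1688 FPKM to the transcription factor gene Isl1 at 18.3 to 23.7, and the summed neuron level was 5061 to 5623 in controls and 5143 to 5416 in PDN. Glia were present too, since 10 markers of myelinating Schwann cells summed to 3405 to 4201 FPKM in controls and 3405 to 4083 in PDN. Control 2 and PDN 3 held the most skeletal muscle RNA, and PDN 1 held some. With Pvalb left out of the 10 muscle genes found, the other 9 summed to 536 FPKM in control 2 and 174 in PDN 3. They summed to 33.4 in PDN 1 and to 1.92 to 2.15 in the remaining 3 libraries. With Pvalb counted, the sums were 682 in control 2, 302 in PDN 3, 165 in PDN 1 and 97.1 to 134 in the rest.

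Of the 9 members, 5 had an FPKM of 1 or more in 3 or more libraries and were tested: Gap43, Flrt3, Stmn4, Atf3 and Sox11. The test was limma, a linear model across all 13282 genes that passed this filter, on log2(FPKM + 1), with Benjamini-Hochberg adjustment over all of them and a threshold of 0.05. A log2 fold change is PDN minus control on that scale, which understates the change of low genes. Of the 5 tested members, 0 passed the threshold, and over all tested genes 0 of 13282 (0%) passed it. At an unadjusted p under 0.05 there were 0 members, against 627 genes (4.72%). In 0 of the 5 tested members did the 3 PDN values lie apart from the 3 control values, beside 1319 of all tested genes (9.93%). So few members cannot show a difference from that share. The 4 members under the filter were not separated either, and Sprr1a, at 0 in every library, could not be. The estimate was higher in PDN for 4 tested members and lower for 1, with a median log2 fold change of 0.04. Over all tested genes 5758 estimates were higher and 7524 lower, with a median of -0.02. In whole tissue such as this, fewer cells of a type and less RNA per cell cannot be told apart.

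The members covered a wide range of levels. Gap43 was the highest, at a mean of 50.0 FPKM over the 6 libraries, above 93.8% of all genes in the table. Then came Flrt3 at 6.77, Stmn4 at 5.24, Atf3 at 3.75 and Sox11 at 2.88 FPKM, followed by Reg3b at 0.625, Ecel1 at 0.364 and Ankrd1 at 0.0711. Sprr1a was listed at 0 in every library. Neighbours in the middle of this order were not clearly set apart: Flrt3 exceeded Stmn4 in 5 of 6 libraries and Stmn4 exceeded Atf3 in 5 of 6, with overlapping ranges. Atf3 exceeded Sox11 in 6 of 6 libraries although their ranges overlapped, and Reg3b exceeded Ecel1 in 4 of 6.

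**Figure D1:**
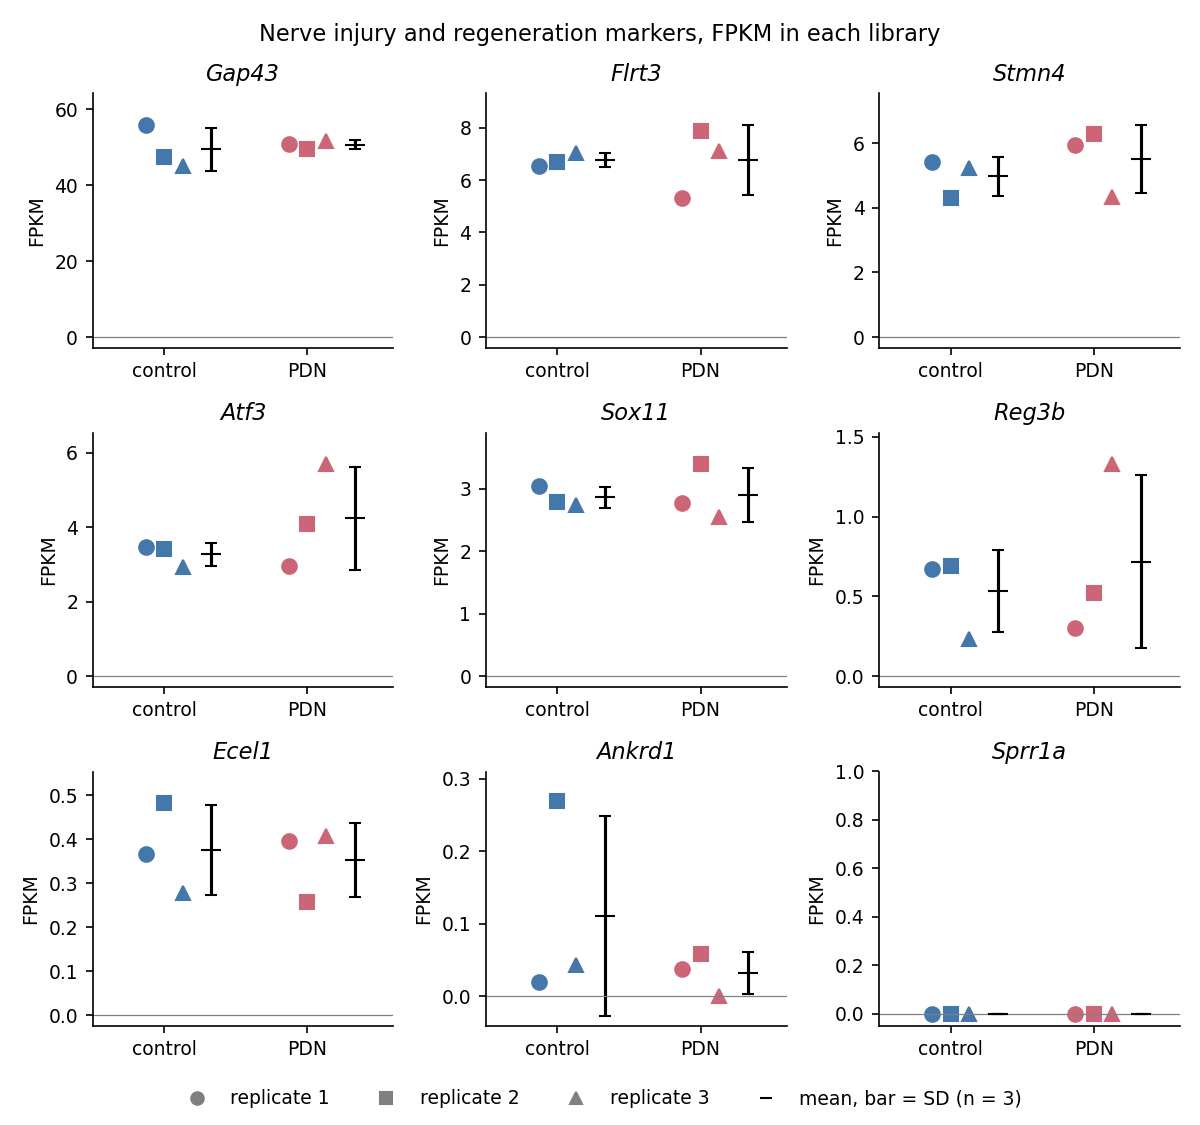
FPKM of each of the 9 members in the 3 control (blue) and 3 PDN (red) libraries, with the marker shape giving the replicate number and the black bar the mean and SD (n = 3); each panel has its own linear axis. The 2 groups overlap in every panel, Atf3 and Reg3b have their highest value in PDN 3, and Sprr1a is at 0 throughout.

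Atf3 (ENSRNOG00000003745, chromosome 13, 109817728 to 109849632 as the file gives it) encodes a transcription factor that sensory neurons switch on after axon injury. It was at 3.47, 3.41 and 2.92 FPKM in controls 1, 2 and 3, and at 2.95, 4.07 and 5.69 in PDN 1, 2 and 3. PDN 2 and PDN 3 lay above all 3 controls, and PDN 1 lay inside the control range. Controls averaged 3.27 ± 0.301 FPKM and PDN libraries 4.23 ± 1.38 (SD, n = 3 each). This gave a log2 fold change of 0.26 ± 0.18 (SE). Its 95% interval ran from -0.17 to 0.70, and limma gave an adjusted p of 0.999. Atf3 had the largest estimate among the tested members, and 1 library weighed heavily on it. Without PDN 3 the log2 fold change was 0.07, and without PDN 1 it was 0.45, with an adjusted p of 1.00 and an unadjusted p of 0.0190 in limma. PDN 3 also had muscle and Schwann cell RNA above the other PDN libraries, with Schwann cell markers summing to 4083 FPKM against 3405 and 3443. In summed FPKM control 2 had more of both than PDN 3, with Schwann cell markers at 4201, and its Atf3 was at 3.41. In the mean centred log2(FPKM + 1) of the same Schwann cell markers the order was the other way, with PDN 3 at 0.22 and control 2 at 0.16. With both muscle-rich libraries (control 2 and PDN 3) left out, the log2 fold change of Atf3 was 0.10, and without control 2 alone it was 0.29. The part of muscle or Schwann cell RNA in the level of Atf3 was not tested.

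Of the factors that act with ATF3 or belong to its family, Jun, Atf4 and Atf5 were above Atf3 in all 6 libraries. Jun, the partner of ATF3 in injured neurons, was at 24.4 to 33.4 FPKM, averaging 28.3 ± 4.42 in controls and 25.7 ± 1.21 in PDN rats (SD, n = 3 each). Atf4, a factor of the integrated stress response, was at 81.6 to 94.2 FPKM and Atf5 at 42.1 to 58.2. Jdp2, a repressor that dimerizes with JUN, averaged 5.94 ± 0.508 FPKM in PDN rats against 4.82 ± 0.621 in controls, or 0.26 ± 0.10 (SE) on the log2 scale. It did not pass in limma (adjusted p = 0.999). The tested genes whose course over the 6 libraries lay closest to that of Atf3 were Lmcd1 and Qprt, with root mean square differences of 0.0716 and 0.0948 on the centred log2 scale. Lmcd1 was at 2.15 FPKM in PDN 3 and at 0.910 to 1.28 elsewhere.

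Sox11 (ENSRNOG00000030034, chromosome 6, 46629974 to 46631983) encodes a transcription factor of neuronal development that returns during axon regeneration. Its values were 3.05, 2.80 and 2.74 FPKM in controls 1, 2 and 3, and 2.76, 3.39 and 2.55 in PDN 1, 2 and 3. Both the highest and the lowest library were PDN libraries, and the controls lay between them. The means were 2.86 ± 0.165 and 2.90 ± 0.437 FPKM in controls and PDN (SD, n = 3 each), with a log2 fold change of 0.01 ± 0.11 (SE) and a 95% interval of -0.24 to 0.26. Sox12, a relative in the same SoxC group, was at 9.85 to 12.0 FPKM, above Sox11 in every library. Cadm1 and Spry4 followed Sox11 most closely over the libraries, with root mean square differences of 0.0268 and 0.0287.

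Gap43 (ENSRNOG00000001528, chromosome 11, 58624198 to 58717914) encodes the growth-associated protein of the growth cone. It was at 55.7, 47.3 and 45.0 FPKM in controls 1, 2 and 3, and at 50.9, 49.5 and 51.6 in PDN 1, 2 and 3. All 3 PDN values lay within the control range, whose upper end was control 1. That library also had the highest summed level of neuron markers, and the part of this in Gap43 was not tested. Controls averaged 49.4 ± 5.64 FPKM and PDN libraries 50.7 ± 1.08 (SD, n = 3 each), and the log2 fold change was 0.04 ± 0.09 (SE). The 95% interval of -0.16 to 0.25 corresponds to 0.895 to 1.19 times the control value of FPKM + 1. Basp1, another protein of the growth cone membrane, averaged 43.1 ± 3.99 FPKM in controls and 46.7 ± 2.17 in PDN rats. Marcks, a kinase substrate of the same membrane class, averaged 53.8 ± 1.55 in controls and 42.4 ± 8.83 in PDN rats, with 33.4 in PDN 1 and 51.0 in PDN 3. Its log2 fold change of -0.36 ± 0.14 (SE) did not pass (adjusted p = 0.999 in limma). The courses nearest to Gap43 were those of Jakmip2 and Pde4d, with root mean square differences of 0.0148 and 0.0226.

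Stmn4 (ENSRNOG00000053334, chromosome 15, 43007908 to 43025852) encodes a neuronal stathmin, a protein that binds tubulin and destabilizes microtubules. It was at 5.41, 4.29 and 5.22 FPKM in controls 1, 2 and 3, and at 5.94, 6.27 and 4.32 in PDN 1, 2 and 3. PDN 1 and PDN 2 were above all controls, whereas PDN 3 was as low as control 2. Controls averaged 4.97 ± 0.598 FPKM and PDN libraries 5.51 ± 1.04 (SD, n = 3 each), with a log2 fold change of 0.12 ± 0.14 (SE) and a 95% interval of -0.21 to 0.44. The 2 low libraries were those with the most muscle RNA, and PDN 1, next after them in muscle RNA, was above all controls. With control 2 and PDN 3 left out the log2 fold change was 0.17, with an unadjusted p of 0.176 in limma, and without PDN 3 alone it was 0.25. Stmn4 was the lowest stathmin gene here. Stmn3 was at 564 to 687 FPKM, Stmn2 (SCG10), which regenerating axons carry to the growth cone, at 601 to 677, and Stmn1 at 81.6 to 109. Stmn2 averaged 651 ± 25.5 FPKM in controls and 616 ± 24.2 in PDN rats, and its groups overlapped. Amer2 and Zfp414 lay closest to Stmn4 over the libraries, with root mean square differences of 0.0252 and 0.0553.

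Flrt3 (ENSRNOG00000004874, chromosome 3, 134683065 to 134696654) encodes a leucine-rich repeat protein of the cell surface that binds latrophilin and UNC5 receptors. Controls 1, 2 and 3 were at 6.54, 6.70 and 7.05 FPKM, and PDN 1, 2 and 3 at 5.30, 7.90 and 7.11. The controls were close together and lay between PDN 1 and the 2 higher PDN libraries. The means were 6.76 ± 0.257 and 6.77 ± 1.33 FPKM in controls and PDN (SD, n = 3 each), with a log2 fold change of -0.01 ± 0.13 (SE) and a 95% interval of -0.32 to 0.29. The sign of this estimate turned with the scaling of the libraries. Its relatives Flrt1 (5.57 to 6.71 FPKM) and Flrt2 (3.28 to 4.64 FPKM) were at similar levels. Among the genes of its receptors, Adgrl3 was at 33.4 to 37.4 FPKM and Adgrl1 at 28.5 to 37.2, whereas Unc5b was at 3.47 to 4.80. Unc5b had a log2 fold change of -0.18 ± 0.10 (SE) and did not pass (adjusted p = 0.999 in limma). Atl1 and Ints12 had the courses nearest to Flrt3, with root mean square differences of 0.0342 and 0.0456.

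**Figure D2:**
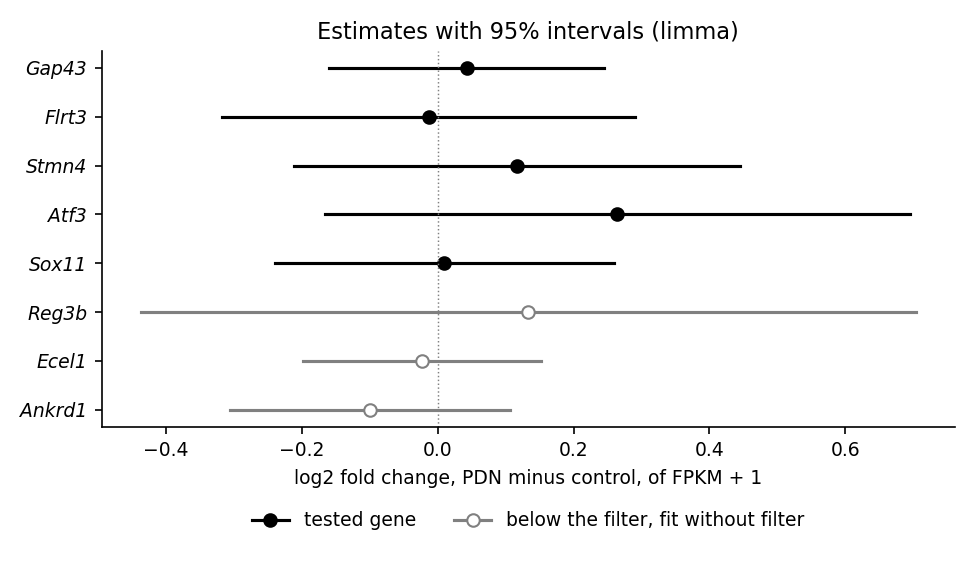
Log2 fold change of FPKM + 1 (PDN minus control, horizontal axis) with its 95% interval for the 8 members with a value above 0, from limma; filled points are the 5 tested genes and open points the 3 genes under the filter, taken from the fit without the filter. Every interval includes 0, and those of Atf3 and Reg3b are the widest.

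The remaining 4 members stayed under the filter. For them an exact two-sided permutation test of the difference in mean log2(FPKM + 1) was used, which with 3 against 3 libraries cannot give a p below 0.1. Sprr1a, Reg3b and Sox11 are shown by the 250 bases before their start site, as a set of 2 low members and 1 expressed member. The sequences are from RefSeq (GRCr8), and the table holds entries for 5 of the 9 members. Capitals mark matches to TGANTCA, the AP-1 motif that dimers of JUN and ATF3 or FOS can bind, and to TATAAA, both searched on both strands.

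Sprr1a, chr2:180752626-180752875, minus strand: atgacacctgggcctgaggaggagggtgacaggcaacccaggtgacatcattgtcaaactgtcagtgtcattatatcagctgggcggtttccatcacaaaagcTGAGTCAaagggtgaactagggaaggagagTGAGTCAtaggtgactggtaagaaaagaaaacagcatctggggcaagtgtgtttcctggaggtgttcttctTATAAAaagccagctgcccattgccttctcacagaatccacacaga
Reg3b, chr4:112419526-112419775, plus strand: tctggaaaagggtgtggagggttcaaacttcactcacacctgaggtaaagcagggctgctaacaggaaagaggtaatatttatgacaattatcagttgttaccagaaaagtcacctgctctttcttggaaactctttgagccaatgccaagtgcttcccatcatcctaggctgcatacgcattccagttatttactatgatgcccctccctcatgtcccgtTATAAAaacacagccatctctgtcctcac
Sox11, chr6:49738795-49739044, minus strand: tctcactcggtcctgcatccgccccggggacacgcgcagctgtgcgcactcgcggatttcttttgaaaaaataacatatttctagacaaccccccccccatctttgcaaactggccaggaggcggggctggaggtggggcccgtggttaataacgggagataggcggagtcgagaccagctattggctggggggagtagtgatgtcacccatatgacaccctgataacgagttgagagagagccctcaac

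The Sprr1a window held 2 AP-1 matches, which begin 147 and 117 bases before the start, and a TATAAA match that begins 46 bases before it. An AP-1 match was found in 6.34% of 33469 promoter windows of this length and at least 2 in 0.311%. The windows of Sox11, Reg3b, Flrt3 and Ecel1 held none. TATAAA was found in 12.9% of the windows and among the members in those of Sprr1a and Reg3b. The CRE motif TGACGTCA, searched in the same way, was in 1.59% of the windows and in none of the 5. These matches describe letters and not binding.

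Sprr1a (ENSRNOG00000024028, chromosome 2, 192669143 to 192671059) encodes a small proline-rich protein that is raised in injured neurons and promotes neurite growth. It was listed at 0 FPKM in all 6 libraries, so no fold change can be given. Its relatives Sprr1b, Sprr2d and Sprr3, proteins of the skin barrier, were also listed at 0 in all 6. The fragments behind single genes could not be recovered from the deposited tables, so no upper limit was computed for a listed 0.

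Reg3b (ENSRNOG00000006151, chromosome 4, 109467272 to 109470783) encodes a secreted lectin of the regenerating islet-derived family, which injured sensory neurons can express. It was at 0.674, 0.690 and 0.235 FPKM in controls 1, 2 and 3, and at 0.299, 0.523 and 1.33 in PDN 1, 2 and 3. PDN 3 was the only library above 1 FPKM, while PDN 1 and PDN 2 lay within the control range. The difference in mean log2(FPKM + 1) was 0.13, with an exact permutation p of 0.8, and without PDN 3 it was -0.11. Among the members with a value above 0 in all 6 libraries, Reg3b varied most, by 5.66 times from its lowest to its highest library. Reg3a, a close relative, was at 0.568, 0.778 and 0.866 FPKM in controls and at 0.276, 1.20 and 2.01 in PDN 1, 2 and 3, so PDN 3 was the highest library for both. Fragments may be split uncertainly between such similar genes. Reg3g and Reg4 were listed at 0 in all 6 libraries.

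Ecel1 (ENSRNOG00000019447, chromosome 9, 94239006 to 94250809) encodes a membrane peptidase-like protein of neurons, known as DINE, that is raised by nerve injury. It was at 0.366, 0.481 and 0.277 FPKM in controls 1, 2 and 3, and at 0.395, 0.256 and 0.406 in PDN 1, 2 and 3. The groups overlapped in part, with PDN 2 below all controls and control 2 above all PDN libraries, and the exact permutation test gave a p of 0.9. The related enzymes were far higher and similar in the 2 groups, with Ece1 at 20.4 to 24.6 FPKM, Ece2 at 15.2 to 16.4 and Mme (neprilysin) at 6.54 to 8.29.

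Ankrd1 (ENSRNOG00000018598, chromosome 1, 254726969 to 254735548) encodes an ankyrin repeat protein first known from heart and muscle that is also raised in injured sensory neurons. It was at 0.0191, 0.270 and 0.0436 FPKM in controls 1, 2 and 3, and at 0.0372, 0.0575 and 0 in PDN 1, 2 and 3. Control 2 stood above all others, and it was also the library with the most muscle RNA, whereas PDN 3, next in muscle RNA, was listed at 0. The difference in mean log2(FPKM + 1) was -0.10, with an exact permutation p of 0.5, and without control 2 it was 2.65e-05. Ankrd23, a muscle relative, reached 4.59 FPKM in control 2 and 1.80 in PDN 3, and at 0.0412 to 0.506 in the rest. Of the 9 muscle genes, 0 were at 0 in control 2, in PDN 3 and in PDN 1, and their part in the level of Ankrd1 was not tested.

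The members did not share a common order of libraries. Of the 8 members above 0, PDN 2 was the highest library for 3 (Sox11, Flrt3 and Stmn4), PDN 3 for 2 (Atf3 and Reg3b), control 2 for 2 (Ecel1 and Ankrd1) and control 1 for Gap43. PDN 3 was at the same time the lowest library for Sox11 and Ankrd1. On the centred log2 scale Atf3 was at 0.52 and Reg3b at 0.55 in PDN 3, where Sox11 was at -0.13 and Stmn4 at -0.22. The SD of log2(FPKM + 1) was larger in PDN than in controls for 5 of the 8 members, beside 49.4% of all tested genes. Flrt3 (0.257 against 0.0475) and Atf3 (0.380 against 0.104) were among the 5, and Gap43 went the other way (0.0302 against 0.158).

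**Figure D3:**
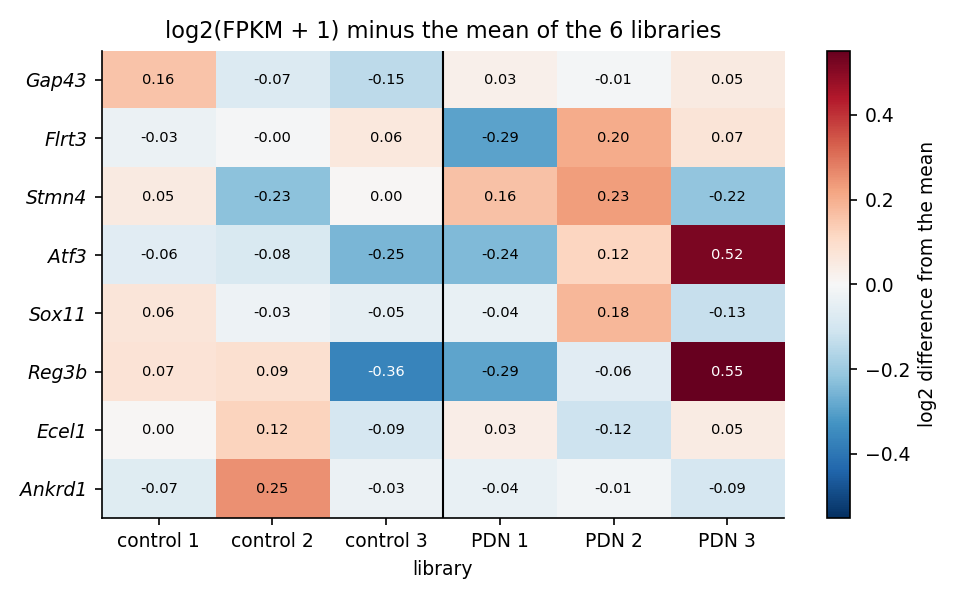
Log2(FPKM + 1) of 8 members (rows) in each of the 6 libraries (columns) minus the mean of that gene over the libraries, with red above and blue below the mean. PDN 3 has the darkest red cells, for Atf3 (0.52) and Reg3b (0.55), and PDN 1 is blue for Flrt3, Atf3 and Reg3b. The darkest blue cell is Reg3b in control 3 (-0.36), where Atf3 is also at its lowest (-0.25).

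Other genes of the injury response were taken from lists of known function. Of 30 injury transcription factors and partners, 27 were tested, 16 with a higher and 11 with a lower estimate in PDN, and 0 passed the adjusted threshold in limma. The median log2 fold change was 0.04. An unadjusted p under 0.05 was found for 2 of the 27, beside 4.72% of all tested genes. Both encode factors of the acute phase response and had higher estimates. Cebpb averaged 11.7 ± 0.510 FPKM in PDN rats against 9.82 ± 0.580 in controls and Cebpd at 6.68 ± 0.316 against 5.70 ± 0.421 (SD, n = 3 each), with adjusted p-values of 0.999 for both in limma. Jund was at 56.4 ± 2.47 against 49.6 ± 6.44. Stat3, which carries cytokine signals from the injured axon, was at 78.1 ± 2.45 against 81.4 ± 4.74 FPKM, and its feedback inhibitor gene Socs3 at 2.22 ± 0.605 against 2.76 ± 0.561. Their groups overlapped.

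Of 36 genes of the growth cone and axon growth, 35 were tested, 15 with a higher and 20 with a lower estimate, with a median of -0.02 and 0 past the adjusted threshold. This split is close to that of all tested genes in the main analysis (5758 higher and 7524 lower), which depended on the scaling. Beside Marcks, the genes with the smallest p were Plaur and Rac2. Plaur, which encodes the urokinase receptor, averaged 6.25 ± 1.14 FPKM in PDN against 4.46 ± 0.450 in controls, and Rac2, a small GTPase gene of blood cells, at 1.08 ± 0.382 against 2.08 ± 0.572 (SD, n = 3 each). Summed markers of macrophages, which express Rac2, were 33.5 to 44.8 FPKM in PDN and 43.8 to 58.0 in controls. Of the 12 macrophage markers 11 were found, none of them at 0 in all libraries, and their part in the level of Rac2 was not tested. The tubulin genes Tubb3, Tubb2a and Tubb2b had overlapping groups. Tuba1a, at 1427 ± 37.9 against 1567 ± 25.9 FPKM, was among the 3 of 35 genes whose groups did not overlap, beside 9.93% of all tested genes, and it did not pass (adjusted p = 0.999 in limma).

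Of 30 neuropeptides and factors known to rise after axotomy, 22 were tested, 8 with a higher and 14 with a lower estimate in PDN, a median of -0.10 and 0 past the adjusted threshold. In the main analysis estimates also leaned lower over all tested genes (7524 of 13282). Marker lists of cell types differed. Lower estimates were found for 8 of 10 satellite glia markers (median -0.13), 7 of 7 fibroblast markers (-0.21) and 7 of 8 smooth muscle and pericyte markers (-0.27). The same held for 8 of 9 macrophage and 7 of 8 endothelium markers. Neuron markers had 8 higher and 4 lower estimates (0.05). Myelinating Schwann cell markers had 5 and 5 (0.01), and repair Schwann cell markers 4 and 2 (0.09). The part of these cells in the list was not tested. An unadjusted p under 0.05 was found for 3 of the 22, all with lower estimates, beside 4.72% of all tested genes, of which 384 of 627 were lower. The galanin gene Gal, among the neuropeptides most raised by axotomy, was at 2.71, 1.92 and 2.17 FPKM in controls and at 1.40, 1.18 and 1.55 in PDN, with a log2 fold change of -0.46 ± 0.12 (SE) and an adjusted p of 0.909 in limma. The neurotrophin gene Bdnf averaged 7.31 ± 0.249 FPKM in controls and 5.63 ± 0.436 in PDN rats (SD, n = 3 each), with a log2 fold change of -0.33 ± 0.08 (SE) and an adjusted p of 0.811. The corticotropin-releasing hormone gene Crh averaged 8.70 ± 3.91 FPKM in controls and 3.79 ± 0.749 in PDN rats, and control 1, at 4.18, lay within the PDN range. Npy, which is nearly silent in intact ganglia, was listed at 0 in the 3 PDN libraries and at 0, 0.220 and 0.0893 FPKM in controls 1, 2 and 3. Vip did not exceed 0.256 FPKM in any library. Csf1, the signal from injured neurons to microglia, was at 2.90 ± 0.318 in PDN against 3.30 ± 0.513 in controls, with overlapping groups.

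Of 30 sensory neuron genes known to fall after axotomy, all 30 were tested, 17 with a higher and 13 with a lower estimate. The median was 0.02, and 0 of the 30 had an unadjusted p under 0.05, beside 4.72% of all tested genes. The nociceptor sodium channel genes Scn10a (118 ± 11.9 FPKM in PDN against 120 ± 15.8 in controls) and Scn11a (102 ± 4.35 against 99.3 ± 14.4) differed by less than their spread (SD, n = 3 each). Tac1, the substance P gene, had the smallest p of the list, at 164 ± 11.8 against 181 ± 4.40 FPKM and a log2 fold change of -0.14 ± 0.07 (SE). Calcb, at 65.8 ± 2.90 against 60.8 ± 2.85, and Sst, at 60.5 ± 7.59 against 54.0 ± 2.56, followed with higher estimates. None of the 3 passed in limma, with adjusted p-values of 0.999. The neurofilament genes Nefh, Nefm and Nefl had log2 fold changes of 0.001, -0.004 and -0.02, and the sign turned with the scaling for Nefm and Scn10a.

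**Figure D4:**
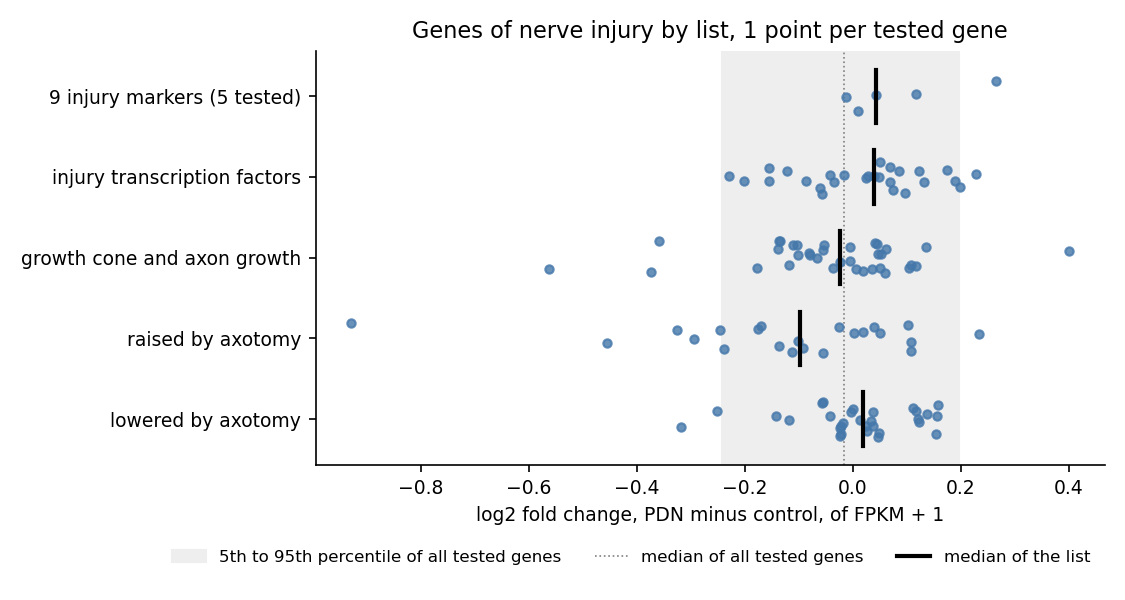
Log2 fold change (PDN minus control, horizontal axis) of each tested gene in the 5 lists of nerve injury genes, with the median of a list as a black bar, the median of all tested genes as a dotted line and their 5th to 95th percentile in grey. The medians lie between -0.10 for genes raised by axotomy and 0.04, and the points farthest out are Crh and Rac2 on the lower side and Plaur on the higher side.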

How the data were processed

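RNA-seq libraries from 3 control and 3 PDN rats were analysed; per the labels' protocols they were strand-specific and made from 1 µg of total RNA. FPKM values are as the authors deposited them, and the sources used here name no aligner, quantifier, annotation or genome build. The deposited table named for read counts was treated as a score, because 54.5% to 54.9% of its values above 1000 equal FPKM times genomic span times 1 constant per library within a relative tolerance of 0.001; depth is inferred from these constants, and no counting interval was computed. Genes with an FPKM of 1 or more in 3 or more libraries were fitted in limma 3.58.1 (R 4.3.3) on log2(FPKM + 1), with an intensity trend and group as the only term, after the fit was tested on simulated data. Members under the filter had exact permutation tests. Named genes are the 9 members, their relatives, the 3 genes with the smallest p of each list, and the 2 tested genes whose centred values had the smallest root mean square difference from a member; Stat3, Socs3, Tuba1a, Npy, Vip, Csf1, Scn10a, Scn11a, the neurofilaments and Jun were chosen after their values were seen. The members and lists were chosen with earlier results of these data known. Alternatives changed the pseudocount, filter, scaling, empirical Bayes step, table, replicate block and libraries.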

Additional observations from a re-analysis of the deposited data

How the results depend on the processing

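Under all 16 alternatives run, 0 members passed the adjusted threshold, and the median log2 fold change of the 5 tested members stayed between 0.01 and 0.13. For Gap43, Sox11 and Flrt3 the values of the whole-number table were 1.00 times FPKM times span times the constant of the library. That table was therefore no separate measure of these genes. The count of genes called over the whole table, 0 in the main analysis, was 1 without the filter, 1 without the intensity trend, 1 with robust empirical Bayes, 3 in the whole-number table and 9 with control 2 and PDN 3 both left out; with single libraries removed in turn it was between 0 and 6. Atf3 and Stmn4 kept a positive estimate in all 16 alternatives, with ranges of 0.07 to 0.45 and 0.03 to 0.25. Some of these could not turn a sign, because they leave the estimate of a tested member as it was. They are the 2 changes of filter, the fit without the intensity trend, robust empirical Bayes and the replicate block. Flrt3 turned to 0.0059 with median-of-ratios scaling and to 0.0068 with upper-quartile scaling, and without single libraries it lay between -0.118 and 0.13. In the same leave-one-out fits Sox11 ran from -0.0786 to 0.0747 and Gap43 from -0.0197 to 0.131. For members under the filter, differences without 1 library, an alternative chosen after seeing the data, ran from -0.0750 to 0.0320 for Ecel1, from -0.159 to 2.65e-05 for Ankrd1 and from -0.109 to 0.312 for Reg3b. With each library left out, the median of genes raised by axotomy ran from -0.13 to -0.04. The 24 list genes recomputed in the same way never passed, and 19 kept their sign. Nefm turned to 0.0183 with median-of-ratios scaling, 0.0193 with upper-quartile scaling and 0.0051 in the whole-number table, and Scn10a to 0.00067 and 0.0017 with the 2 scalings. With control 2 and PDN 3 both left out, Nefh turned to -0.0837 and Scn11a to -0.0483. Without single libraries Nefh ran from -0.0715 to 0.108, Nefm from -0.0838 to 0.147, Nefl from -0.0815 to 0.0517, Scn10a from -0.135 to 0.0384 and Scn11a from -0.0775 to 0.122. The causes of these shifts were not tested.

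The labels number the replicates 1 to 3 in both groups, and the values did not show whether the numbers pair the samples. Deviations of same-numbered libraries from their group means correlated at 0.171, -0.120 and -0.0865 across genes. The largest correlation, 0.269, was between control 2 and PDN 3, the libraries with the most muscle RNA. With so few libraries, and muscle RNA in some, these correlations cannot decide on a pairing. With the replicate number as a block, 0 genes and 0 members passed, and the smallest adjusted p of a member was 0.819. Not every library correlated best with its own number. With 3 libraries per group, the limma p-values set a group difference against a spread between animals that is estimated partly from other genes. The 95% intervals of the tested members reach down to between -0.32 and -0.16 and up to between 0.25 and 0.70 on the log2 scale. The number of fragments behind values under 1 FPKM is unknown.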
